A study of Caenorhabditis elegans with 2 samples.

Results

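Of the 2482 nuclear summits listed for the tagged EKL-4 protein in young adult worms, 216 (8.70%) lay at a tRNA gene. Each was at most 500 bp away from its annotated 5′ end, and these are the summits described here. They were chosen by position alone within the authors' conservative thresholded peak list. A summit is the base of a peak at which the authors' caller placed its maximum. Seen from the genes, 247 of 612 nuclear tRNA genes had such a summit (40.4%, 95% Wilson interval 36.5 to 44.3%), where 6.42% of 19973 protein-coding genes did by the same rule. The other 365 tRNA genes had none. These counts depend on the list. In the thresholded list of replicate 1, of 1495 nuclear peaks, there were 103 such summits at 19.1% of tRNA genes. In that of replicate 2, of 1830 nuclear peaks, there were 182 at 33.7%. Protein-coding shares were not counted in these 2 lists. Without summits in repeated sequence there were 30 at 5.23% of all tRNA genes. That filter by construction removes summits on multi-copy tRNA genes, because the gene itself counts as repeated. The intervals on shares cover counting error only, because genes and peaks of one list are not replicates.

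The data are chromatin immunoprecipitations followed by sequencing from whole Caenorhabditis elegans. There was 1 group of 2 biological replicates. Both came from strain RW12207, genotype st12207[ekl-4::TY1::EGFP::3xFLAG] I, in which CRISPR insertion had put a TY1, EGFP and 3xFLAG tag on ekl-4, and an antibody to GFP was used. Animals were young adults at 65 h, synchronised by bleaching and L1 starvation, and chromatin had been sonicated to 200 to 800 bp. No untagged or wild-type animals were analysed here, all cell types of the animal were mixed, and read depth is not known from the peak lists, so a weaker summit and a summit present in fewer cells cannot be told apart. EKL-4 corresponds to DMAP1 of mammals, a protein found in NuA4/TIP60 and SWR1 type complexes, which acetylate histones or exchange histone variants at gene promoters.

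tRNA genes are short genes read by RNA polymerase III, and their promoter lies inside the transcribed sequence. The A box, near the 5′ end, and the B box, further downstream, are bound by the factor TFIIIC, which places TFIIIB just upstream of the start, and TFIIIB recruits the polymerase. A run of T after the gene ends transcription. Many tRNA genes are identical copies of each other, spread over the genome or in short groups, and some lie inside introns of protein-coding genes.

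Sequences are given for 5 tRNA genes among the 10 with the strongest summits. The peak spanned the whole gene in 4 of the 5. At W09D6.t2 the summit lay at −42 bp, and the peak covered only the 5′ part of the gene. The sequences were read from the RefSeq genome of build ce11 (WBcel235) and are given 5′ to 3′ on the strand of the gene. Capitals mark the match to the B box core GTTCGANNC, where N is any base. A match was found in 4 of the 5, and none in the Pro gene W09D6.t2. That gene holds gttcaatcc, which differs from the core only at the base after GTTC, so the search did not count it. The genes lie at chrX:9743589-9743660 for F15G9.t1, chrIII:11066848-11066919 for W09D6.t2, chrX:13665555-13665673 for C04A11.t1, chrV:12002176-12002260 for F57F5.t1 and chrV:15465086-15465158 for T23F1.t1. W09D6.t2 is on the minus strand and the other 4 are on the plus strand. The number of identical copies in the genome was 8 for the Ala gene F15G9.t1, 24 for W09D6.t2, 14 for the Lys gene T23F1.t1, and 1 each for the Leu gene C04A11.t1 and the Ile gene F57F5.t1.
F15G9.t1: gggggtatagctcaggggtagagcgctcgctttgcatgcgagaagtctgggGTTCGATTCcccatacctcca
W09D6.t2: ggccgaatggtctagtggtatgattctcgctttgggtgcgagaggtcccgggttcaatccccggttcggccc
C04A11.t1: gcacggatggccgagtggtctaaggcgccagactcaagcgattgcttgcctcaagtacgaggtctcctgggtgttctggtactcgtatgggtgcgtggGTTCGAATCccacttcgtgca
F57F5.t1: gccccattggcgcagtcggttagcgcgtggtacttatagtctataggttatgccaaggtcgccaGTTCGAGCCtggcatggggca
T23F1.t1: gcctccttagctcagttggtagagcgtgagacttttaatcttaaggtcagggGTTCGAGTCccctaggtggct

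For contrast, the B box core, again in capitals, is also shown in annotated tRNA pseudogenes, the first 2 along the X chromosome that hold it and had no summit. They lie at chrX:86887-86958 on the plus strand (Y73B3A.t1) and at chrX:1474006-1474087 on the minus strand (D1005.t1), and each occurs once in the genome.
Y73B3A.t1: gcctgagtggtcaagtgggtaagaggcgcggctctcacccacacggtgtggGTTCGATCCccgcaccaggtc
D1005.t1: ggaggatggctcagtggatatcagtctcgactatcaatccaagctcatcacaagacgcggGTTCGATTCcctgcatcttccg

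The strongest summit with the 100 bases on each side of it, chrX:9743554-9743754 on the plus strand, shows the position of the summit over the genes. Capitals here mark tRNA gene sequence: the whole of F15G9.t1, and the first bases of F15G9.t2, which starts 93 bp after the summit. The summit is the middle base, 65 bp into F15G9.t1, whose last base lies 6 bp further on.
window of F15G9.t1: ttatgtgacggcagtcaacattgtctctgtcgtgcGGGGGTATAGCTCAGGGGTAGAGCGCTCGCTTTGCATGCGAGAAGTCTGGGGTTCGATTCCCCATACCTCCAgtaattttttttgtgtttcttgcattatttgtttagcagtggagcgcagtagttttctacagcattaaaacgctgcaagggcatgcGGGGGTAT

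Most summits sat on the tRNA gene or right beside it. Measured along the gene's strand, the median summit was 20 bp downstream of the 5′ end of the nearest tRNA gene (quartiles −2 and 51.25 bp, extremes −421 and 497 bp). Of the 216 summits, 143 (66.2%) were within 50 bp of the 5′ end and 194 (89.8%) within 100 bp. The tRNA genes have a median length of 72 bp, and 131 summits (60.6%) lay inside the gene, 56 (25.9%) upstream of it and 29 (13.4%) beyond its 3′ end. In the 164 cases where the nearest gene held the B box core, the median position of the summit was −38.5 bp from the centre of that match (quartiles −62 and −4.75 bp).

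The 1101 summits at protein-coding 5′ ends with no tRNA gene in reach were spread more widely. Their median position was −116 bp, upstream of the 5′ end (quartiles −245 and 24 bp), and 17.6% lay within 50 bp of it. For protein-coding genes the nearest 5′ end of any annotated transcript was used. The rule allowed any position up to 500 bp on either side for both kinds of gene. The 3 tRNA summits nearest inside that limit were at −421 bp from F58D5.t1 (signal 91.8), 445 bp from B0344.t3 (signal 83.4) and 497 bp from C16D9.t4 (signal 155). The last also had a small nucleolar or small nuclear RNA gene within reach. The 3 nearest outside the limit were at −549 bp from F15D3.t1 (signal 193), 738 bp from T22F3.t2 (signal 93.9) and 749 bp from C56G7.t1 (signal 92.2). The summit near C56G7.t1 had a protein-coding 5′ end within reach. Only 7 summits lay between 500 and 1000 bp from a tRNA gene.

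**Figure D1:**
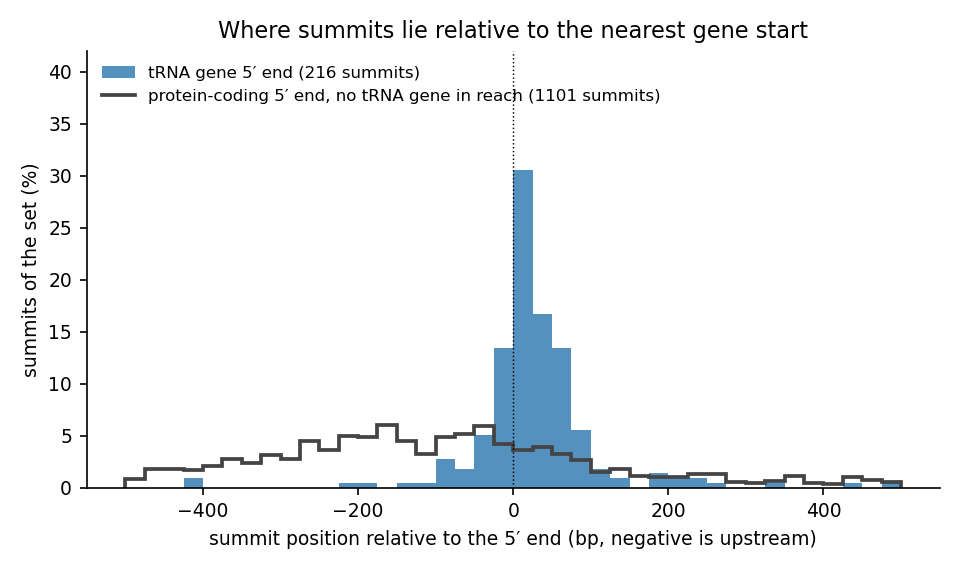
Percentage of summits (vertical axis) in 25 bp steps of distance from the 5′ end of the nearest gene (horizontal axis, negative is upstream), for 216 tRNA gene summits (filled) and 1101 summits at protein-coding 5′ ends with no tRNA gene in reach (outline). The tRNA gene summits crowd around the 5′ end, with a median 20 bp downstream, while the others spread around a median of −116 bp.

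In strength the tRNA gene summits were middling. Signal is the strength the authors' caller gave each peak relative to a control, on a scale they do not state. The median signal was 114 over tRNA gene summits (quartiles 91.0 and 136, extremes 2.26 and 255), against 108 over all 2482 summits (quartiles 86.2 and 150). None reached the upper end: the strongest tRNA gene summit ranked 169 of 2482, none was among the 100 strongest and 6 were among the 250 strongest. At or above the list's median signal were 121 of the 216. For the 167 summits at small nucleolar or small nuclear RNA genes with no tRNA gene in reach, another group of short RNA genes, the median signal was 144.

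The 10 strongest summits stood at genes for 9 different amino acids and had a peak in the thresholded list of each replicate. In the sentences that follow, the first signal is that of the conservative list and the replicate signals come from each replicate's own ranked list. F15G9.t1, an Ala tRNA gene on X inside an intron of him-4, which encodes the matrix protein hemicentin, had signal 255, with 130 in replicate 1 and 116 in replicate 2. M01E5.t1, a Lys tRNA gene on chromosome I, had signal 253, with 107 in replicate 1 and 127 in replicate 2. Its summit lay at −74 bp, upstream of the gene, in a peak of 103 bp, the smallest width in the set, which R11.t1 shares, and a small nucleolar or small nuclear RNA gene was also within reach. M02F4.t1, a Gly tRNA gene on X, had signal 247, with 82.9 in replicate 1 and 147 in replicate 2, and its summit lay at −38 bp.

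W09D6.t2, a Pro tRNA gene on chromosome III in an intron of rsa-2, whose product takes part in spindle assembly, had signal 231, with 76.0 in replicate 1 and 148 in replicate 2. C04A11.t1, a Leu tRNA gene on X with no identical copy, had signal 230, with 93.3 in replicate 1 and 130 in replicate 2. C53C7.t2, a Ser tRNA gene on X, had signal 223, with 71.9 in replicate 1 and 148 in replicate 2. Of these first 6, replicate 2 was higher in all but F15G9.t1, and the gap was widest at C53C7.t2 and W09D6.t2. F57F5.t1, an Ile tRNA gene on V with no identical copy, had signal 217, with 73.0 in replicate 1 and 129 in replicate 2. A protein-coding 5′ end is also within reach of the F57F5.t1 summit. F41D9.t3, an Asn tRNA gene on X in an intron of the sulfate permease family gene sulp-3, had signal 211, with 90.4 in replicate 1 and 121 in replicate 2. T23F1.t1, a Lys tRNA gene on V, had signal 205, with 84.4 in replicate 1 and 106 in replicate 2.

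The tenth, F22G12.t1, is a Val tRNA gene on chromosome I with signal 200.5, with 70.3 in replicate 1 and 137 in replicate 2. Its summit also has a protein-coding 5′ end within reach. Among these 10, replicate 2 was higher in 9, and F15G9.t1 was the exception. The strongest summit on chromosome II was at the Ile tRNA gene C27A2.t1, in an intron of C27A2.12, with signal 191, and 77.0 in replicate 1 and 82.0 in replicate 2. On chromosome IV it was at the Lys tRNA gene B0350.t1, with signal 159, and 75.7 in replicate 1 and 90.8 in replicate 2. K11H12.t1, chosen after its values were seen, is the 1 tRNA gene for selenocysteine, the amino acid inserted at recoded stop codons. It had signal 158, with 66.8 in replicate 1 and 84.1 in replicate 2, and a summit at −75 bp, where a protein-coding 5′ end is also within reach.

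A few tRNA gene summits were weak, at a share near that of all summits. Signal was under 50 in 11 tRNA gene summits (5.09%), against 159 (6.41%) of all summits, with the next lowest tRNA gene summit at 66.0. Each of the 11 lay in a peak that overlapped a stronger peak, so they are second summits beside a stronger one, and 6 of them were in exons. Of all 216 peaks, 24 overlapped another peak and 19 tRNA genes had more than 1 summit. Overlap between peaks was not counted over the whole list, so it cannot be called particular to tRNA genes.

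Thresholded peaks of both replicates overlapped 84 of the 216 tRNA gene peaks (38.9%, 32.6 to 45.5%), beside 41.2% of all 2482 peaks. A further 75 met a thresholded peak of replicate 2 only, 10 one of replicate 1 only, and 47 (21.8%) neither, where 29.0% of all peaks met neither. In total 159 (73.6%) were matched in replicate 2 and 94 (43.5%) in replicate 1. For all summits these shares were 61.5% in replicate 2 and 50.7% in replicate 1. The 84 found in both had a median signal of 141 and a median position of 11.5 bp, 38 of them were on X, and 18 also had a protein-coding 5′ end in reach.

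In the longer ranked lists, all but 15 of the 216 had a peak of each replicate with its summit within 200 bp. Signals of the replicates come from separate lists of unknown depth and unstated scale, so the values that follow describe the lists and not a difference in binding. Over the paired summits the median signal was 44.5 in replicate 1 (range 28.0 to 130) and 70.8 in replicate 2 (range 41.9 to 148). Replicate 2 was higher in 191 (95%) and replicate 1 in the other 10, while replicate 2 was higher in 85.1% of all paired summits. The median ratio of replicate 2 to replicate 1 was 1.51 (quartiles 1.29 and 1.81) at tRNA genes and 1.38 over all summits. Spearman's rho between the replicates' signals was 0.598 at tRNA genes and 0.614 over all 2349 paired summits. Pearson's r of their log2 values was 0.62 at tRNA genes and 0.78 over all paired summits. These summits come from the same 2 libraries, and 10 tRNA gene summits shared both replicate peaks with a neighbour. Over the 196 distinct pairs of peaks rho was 0.594.

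**Figure D2:**
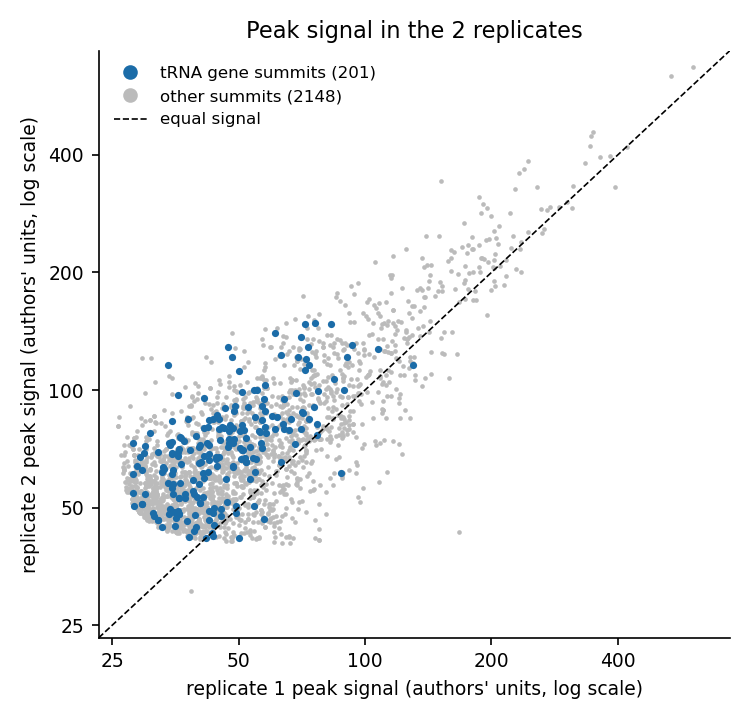
Peak signal in replicate 1 (horizontal axis) against replicate 2 (vertical axis), in the authors' units on log scales, for tRNA gene summits (blue) and 2148 other summits (grey) with a peak in both ranked lists. Most tRNA gene summits lie above the dashed line of equal signal (191, against 10 on the other side), and none reaches the strongest other summits.

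The X chromosome carried the largest share. It held 99 of the 216 summits (45.8%) and 276 of the 612 tRNA genes (45.1%). On X, 123 of 276 tRNA genes had a summit (44.6%, 38.8 to 50.5%), and on the autosomes 124 of 336 did (36.9%, 31.9 to 42.2%). Among single autosomes the share ran between 24 of 78 on chromosome V (30.8%) and 23 of 57 on chromosome II (40.4%). In between were 24 of 66 on chromosome I (36.4%), 25 of 64 on chromosome III (39.1%) and 28 of 71 on chromosome IV (39.4%), and the intervals of all 6 chromosomes overlapped.

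Protein-coding genes had the opposite order, with a summit at 73 of 2731 genes on X (2.67%, 2.13 to 3.35%) and at 7.01% on the autosomes. Of all summits, tRNA genes accounted for 99 of the 299 summits on X (33.1%, 28.0 to 38.6%) and for 117 of 2183 on the autosomes (5.36%, 4.49 to 6.39%). Per megabase there were 5.59 tRNA gene summits and 15.6 tRNA genes on X, against 1.42 summits and 4.07 genes on the autosomes. Other summits numbered 11.3 per megabase on X and 25 on the autosomes. The median signal of tRNA gene summits was 114 on X and 114 on the autosomes, where other summits had 98.9 on X and 108 on the autosomes. Thresholded peaks of both replicates overlapped 38.4% of tRNA gene peaks on X and 39.3% on the autosomes.

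**Figure D3:**
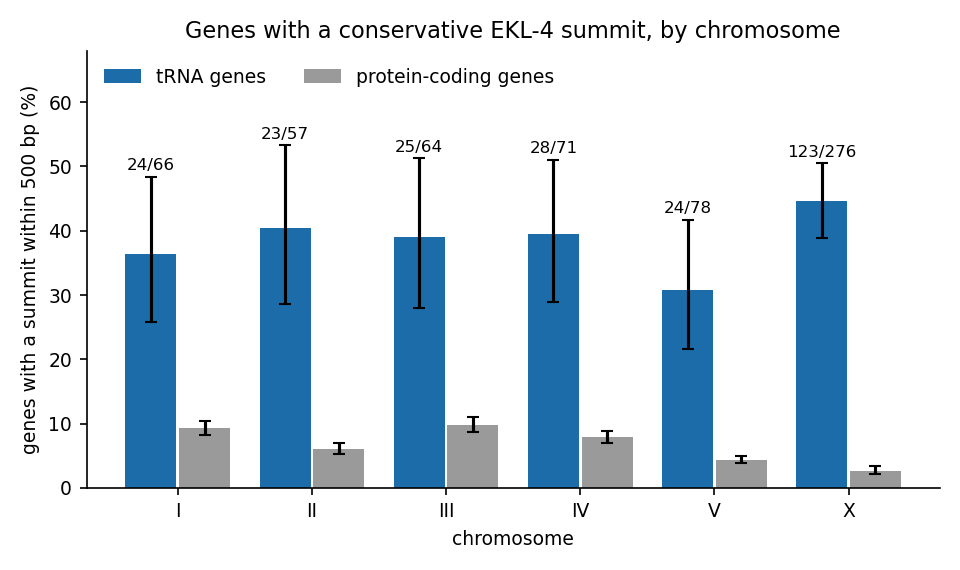
Percentage of tRNA genes (blue, with counts) and of protein-coding genes (grey) that had a summit within 500 bp of a 5′ end, by chromosome, with 95% Wilson intervals as bars. The tRNA gene share lies between 30.8% and 44.6% on every chromosome, and on X, where the protein-coding share is 2.67%, it is 44.6%.

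Introns held 97 of the 216 summits (44.9%), intergenic sequence 109 (50.5%) and protein-coding exons 10 (4.63%). Over all summits the shares were 20.4% in introns, 56.6% intergenic and 22.9% in exons. The tRNA genes themselves were also often intronic, 283 of 612 (46.2%), and a summit was found at 112 of the 283 intronic genes (39.6%, 34.1 to 45.4%) and at 131 of the 319 intergenic ones (41.1%, 35.8 to 46.5%). The median signal was 116 in introns, 116 in intergenic sequence and 29.2 for the 10 summits in exons, 6 of which are among the low summits that overlap a stronger peak. The 97 intronic summits lay in 90 host genes, of which 6 held more than 1. The serpentine receptor gene srv-16 held 3, and K01A12.3, mltn-13, the peptide transporter gene pept-3, the apical junction gene ajm-1 and tbc-12 held 2 each.

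Intronic tRNA genes of X had the highest share. A summit was found at 53 of 95 intronic tRNA genes on X (55.8%, 45.8 to 65.4%) and at 59 of 188 on the autosomes (31.4%, 25.2 to 38.3%). Without the 2 intronic groups of 5 genes on X, whose members can share summits, the X share was 43 of 85 (50.6%). For intergenic tRNA genes the shares were 70 of 180 on X (38.9%, 32.1 to 46.2%) and 61 of 139 on the autosomes (43.9%, 35.9 to 52.2%). This split was looked at after other values were known and was not tested. By orientation to the host, 59 of 161 intronic tRNA genes read in the host's direction had a summit (36.6%), and 53 of 122 read against it (43.4%), with overlapping intervals.

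A protein-coding 5′ end was also within reach of 51 tRNA gene summits (23.6%), against 46.4% of all summits, and a small nucleolar or small nuclear RNA gene of 3. The remaining 163 had neither nearby. The median signal was 114 both with and without a protein-coding 5′ end in reach.

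Neighbouring tRNA genes could share a summit. Within reach of 174 summits was 1 tRNA gene, of 37 there were 2, of 3 there were 3, and 1 summit each had 4 and 5, so that 42 (19.4%) reached more than 1 gene. With genes less than 1000 bp apart joined, the 612 genes form 476 groups, and 196 groups had a summit. Of the 376 genes that stand alone, 136 had a summit (36.2%, 31.5 to 41.1%), of the 156 genes in pairs 78 did (50%, 42.2 to 57.8%), and of the 80 genes in larger groups 33 did (41.2%, 31.1 to 52.2%). A gene in a group can be counted through its neighbour's summit.

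The 4 groups of 5 or 6 genes, all on X, had between 2 and 5 members with a summit. The K01A12 group, 2 Arg and 3 Cys tRNA genes in an intron of K01A12.3, had all 5 genes in reach of a summit 31 bp into K01A12.t4. That summit had signal 121, with 34.7 in replicate 1 and 83.5 in replicate 2, and a second one with signal 19.4 at K01A12.t2 overlapped it and reached 4 of the genes. The H08J11 group, 5 Gln tRNA genes in an intron of ajm-1, had all 5 in reach of 2 summits. One had signal 138, with 61.0 in replicate 1 and 79.4 in replicate 2. The other had signal 98.8, with 28.6 in replicate 1 and 64.0 in replicate 2, and also a protein-coding 5′ end within reach. In the F22F1 group of 6 genes for Ser, Asp, Met and Ile, 1 summit at the Met gene F22F1.t6 reached 3 genes, with signal 127, 35.9 in replicate 1 and 96.9 in replicate 2. In the F28H6 group, 6 His tRNA genes, 1 summit at F28H6.t5 with signal 92.4 reached 2 genes. Of the groups of 4 genes, C12C8 on chromosome I and Y65A5A on chromosome IV had 2 genes with a summit each, R11 on X had 1, and T01B4 on X had none.

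By amino acid, the shares scattered around the 40.4% of all tRNA genes, with wide intervals. RefSeq gave the amino acid of 607 of the 612 genes. Among isotypes with 10 or more genes, the highest shares were for Cys, 8 of 13 genes (61.5%, 35.5 to 82.3%), Ala, 19 of 34 (55.9%, 39.5 to 71.1%), and Ile, 15 of 29 (51.7%, 34.4 to 68.6%). The lowest were for Met, 4 of 20 (20.0%, 8.07 to 41.6%), Trp, 3 of 12 (25%, 8.89 to 53.2%), and Pro, 11 of 42 (26.2%, 15.3 to 41.1%). The intervals of all 20 isotypes held the overall share. An anticodon could be read from the sequence of 557 genes, and it matched the annotated amino acid in 553. By anticodon, a summit was found at 13 of 21 Ile genes with AAT and 0 of 4 with TAT (a Wilson upper bound of 49.0%), at 17 of 30 Lys genes with CTT and 6 of 15 with TTT, and at 15 of 36 Gly genes with TCC and 6 of 15 with GCC. The intervals of each of these pairs overlap.

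**Figure D4:**
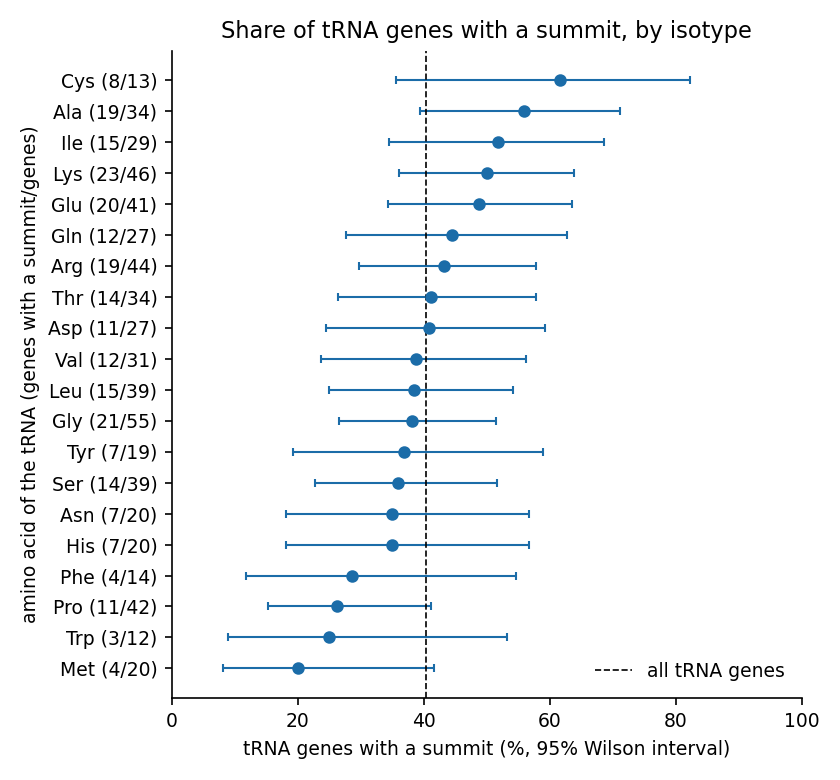
Percentage of tRNA genes with a summit (horizontal axis, points, with 95% Wilson intervals as bars) for each amino acid with 10 or more genes, with the counts beside each name. Cys, Ala and Ile are highest and Met, Trp and Pro lowest, and every interval includes the dashed line at 40.4%, the share of all tRNA genes.

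Identical copies were not alike in having a summit. The 612 genes have 200 distinct sequences, and 57 sequences occur in more than 1 copy, together 469 genes. In 49 of these 57 families some copies had a summit and others did not, in 1 all had one and in 7 none had. The largest family, 29 Gly genes with anticodon TCC, had summits at 14, with signals between 86.1 and 247 and a median of 121. The 25 Lys genes with CTT had summits at 16, with signals between 95.4 and 253, and the 24 Pro genes with TGG at 9, with signals between 76.7 and 231. These signals are counted per gene, so a summit shared by neighbouring copies, such as the Gly genes T10B10.t2 and T10B10.t1, counts more than once. The Pro gene T23F1.t2 was counted through the summit nearest to the Lys gene T23F1.t1.

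The 8 copies of F15G9.t1, the Ala gene with anticodon TGC under the strongest summit, show the range within 1 sequence. T07H6.t1, in an intron of lev-9, whose product helps cluster acetylcholine receptors, had signal 158, with 64.2 in replicate 1 and 79.3 in replicate 2. T07H6.t2 had signal 149, with 63.7 in replicate 1 and 81.7 in replicate 2. Y38E10A.t1 had a summit at −211 bp with signal 102, with 54.5 in replicate 1 and 50.6 in replicate 2, and a protein-coding 5′ end was also within reach. B0491.t2 and B0491.t1 shared 1 summit, 25 bp into B0491.t2, with signal 84.0, 33.0 in replicate 1 and 63.6 in replicate 2. Y37A1B.t1 and Y105C5A.t2, both on chromosome IV, had no peak in the conservative ranking within 500 bp. The 3 copies on X were thus the 3 strongest, and the 2 on chromosome IV had none.

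The share of genes with a summit was highest in the largest families. It was 44 of 140 for genes with no identical copy (31.4%, 24.3 to 39.5%), 27 of 83 for 2 to 5 copies (32.5%), 38 of 100 for 6 to 10 copies (38%) and 138 of 289 for 11 or more copies (47.8%, 42.1 to 53.5%). Copies of the same gene cannot be told apart by reads that lie wholly within them, and no source used here says how the authors placed such reads. Measured as 31-base words found in the genome at more than 1 place, 186 of the 216 summits (86.1%) had over 10% repeated sequence in the summit base and the 100 bases on each side, against 525 (21.2%) of all summits. The median signal was 118 for these 186 and 83.7 for the other 30, whose median position was −47 bp. A window centred on a multi-copy tRNA gene counts that gene as repeated. In windows of the same length centred on the middle of each tRNA gene, 6 of 38 genes with at most 10% repeated sequence had a summit (15.8%). So did 83 of 206 between 10 and 30% (40.3%), 154 of 335 between 30 and 50% (46.0%) and 4 of 33 above 50% (12.1%). The part of repeated sequence in these counts was not tested.

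Annotated tRNA pseudogenes had few summits. By the same rule 7 of 209 did (3.35%, 1.63 to 6.75%), with signals between 79.7 and 200.5. The strongest was at D1046.t1 on chromosome IV, 66 bp into the pseudogene, where a protein-coding 5′ end is also in reach. The B box core was present in 144 of the 209 pseudogenes (68.9%), and 3 of these 144 had a summit, against 184 of the 441 tRNA genes with the core (41.7%). The pseudogenes also differed in other ways: 172 of 209 occurred once in the genome (82.3%), against 140 of 612 tRNA genes (22.9%), and 13.9% were on X. Among tRNA genes without an identical copy, the share was the 31.4% given above. The share among pseudogenes that occur once was not counted separately, so these shares are not matched for copy number.

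**Figure D5:**
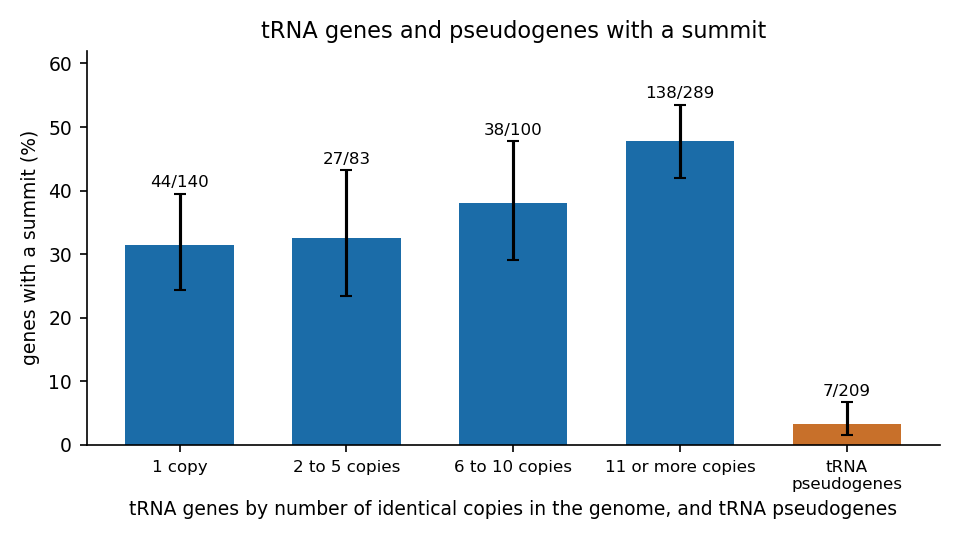
Percentage of genes with a summit, with 95% Wilson intervals as bars and counts above, for tRNA genes by number of identical copies (blue) and for tRNA pseudogenes (orange). The share is 31.4% for single-copy tRNA genes and 47.8% for genes with 11 or more copies, against 3.35% for pseudogenes of any copy number.

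Promoter letters were common in tRNA genes with and without a summit. On the gene's strand, the B box core GTTCGANNC was found in 184 of 247 genes with a summit (74.5%, 68.7 to 79.5%) and in 257 of 365 without (70.4%, 65.5 to 74.9%). The A box, searched by its usual degenerate pattern, was found in 94.7% of genes with a summit and 89.9% of those without. A run of 4 T within 30 bp after the gene was found in 99.6% with a summit and 98.4% without. In windows of 100 bases on each side of the summit, searched on both strands, the B box core was found at 142 of the 216 tRNA gene summits (65.7%), 55 of the 2266 other summits (2.43%) and 1.53% of all windows of the same length tiling the nuclear genome. It was found at 17 of the 1101 summits at protein-coding 5′ ends (1.54%) and at 19 of the 167 at small nucleolar or small nuclear RNA genes (11.4%). The tRNA gene summits were chosen for lying near tRNA genes, 72.1% of which hold the core, and the other summits had none in reach. The gap between these sets thus follows largely from how they were chosen. A match describes the letters and is not evidence of binding by TFIIIC. A gene without a match can hold a close variant, as W09D6.t2 does.

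Many tRNA genes without a summit had a weaker peak. In the ranking of replicate 1, 47.7% of the 365 had a peak summit within 100 bp of the 5′ end, with a median signal of 22.9, and in that of replicate 2 56.4% did, with a median of 36.4. For the 247 genes with a summit the shares were 80.2% in replicate 1 (median signal 44.2) and 89.1% in replicate 2 (median signal 70.3). Pseudogenes had 14.4% in replicate 1 and 22.0% in replicate 2, and protein-coding genes had 13.1% in replicate 1 and 20.6% in replicate 2. In the conservative ranking 254 of the 365 had a peak within 500 bp, with a median best signal of 55.6, against 119 for the 247, and 111 had none. That ranking holds 83980 peaks, and the share of other genes with one within 500 bp was not counted. The 254 thus cannot be set against a background. The genes were split by whether a peak of that ranking entered the conservative list. A lower best signal for the 365 was thus largely set by the split. Of 2538 ranked peaks with the score of at least 830 that the conservative list holds, 56 were left out of that list, and none of these was at a tRNA gene.

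Protein-coding genes whose products act on tRNA genes and tRNAs were read from a list chosen by name. From a list of 30 names, 25 were found in the annotation, and 3 of the 25 had a summit within 500 bp of a 5′ end (12%, 4.17 to 30%), beside the 6.42% of all protein-coding genes, which lies within that interval. All 3 were among the 13 genes of RNA polymerase III and its factors (23.1%, 8.18 to 50.3%), and 0 of the 12 genes for tRNA processing and modification had one (a Wilson upper bound of 24.2%). The summit at rpac-19, a subunit shared by RNA polymerases I and III, had signal 161, with 78.1 in replicate 1 and 92.8 in replicate 2, and lay at −197 bp. At rpc-2, the second largest subunit of RNA polymerase III, the signal was 103, with 44.4 in replicate 1 and 55.6 in replicate 2. At ssb-1, the worm relative of La, which binds the U-rich ends of new RNA polymerase III transcripts, it was 85.9, with 37.7 in replicate 1 and 49.6 in replicate 2. No summit was found at rpc-1, the largest subunit, brf-1, a TFIIIB subunit, or tftc-1, a TFIIIC subunit.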

How the data were processed

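The deposited files are peak lists on build ce11, per the file headers and accompanying text files. The authors called peaks against a control and ranked them by irreproducible discovery rate, and no source used here names the aligner or caller. The deposited signal column is peak strength of unstated scale, the deposited score column is the authors' rank score, which reaches at least 830 in thresholded lists, and the deposited q column holds −log10 q-values, used in 1 alternative. Depth is unknown and the control was not analysed here. In the conservative ranking, 8 columns of per-library values were not used.

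Genes came from Ensembl 115 (WBcel235), isotypes and pseudogenes from RefSeq. A gene had a summit if one lay within 500 bp of its 5′ end, or for protein-coding genes of the 5′ end of any annotated transcript. Replicates were matched by an overlap of at least 1 bp with thresholded peaks, or by the nearest ranked summit within 200 bp. Shares have 95% Wilson intervals and no test was run. The labels number 2 biological replicates and say no more of their origin. Named genes are those at the 10 strongest summits, the strongest per chromosome, those with most genes in reach or nearest the limit, extreme isotypes and listed pathway genes, plus copies of the strongest and the largest groups. Members and lists were chosen with earlier results of these data known. The search for summits near genes was tested on simulated data. Scripts ran in Python 3.11.15 with scipy 1.17.1, pandas 2.3.3, numpy 2.4.6 and matplotlib 3.10.9. Alternatives covered windows, gene bodies, the larger list, single replicates, stronger summits, peak overlap and repeated sequence.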

Additional observations from a re-analysis of the deposited data

How the results depend on the processing

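Of 76 alternative values, 52 stayed within the interval, 1.5-fold or replicate spread set for them, 23 moved and 1 changed sign, and the causes were not tested. No such limit was set for the alternatives of Spearman's rho, which were counted among the 23. The number of summits was 121 at or above the median signal and 30 without repeated sequence, and ranged from 103 to 182 with 1 replicate left out, 103 being the list of replicate 1. The share of tRNA genes with a summit was 45.9% within 1000 bp, 34.2% in or near the gene body, 24.8% with stronger summits, 5.23% without repeated sequence, and 19.1 to 33.7% with 1 replicate left out. The median distance was 17 bp in the larger list and with stronger summits, −47 bp without repeated sequence, and 14 to 18 bp with 1 replicate left out. The filter for repeated sequence by construction removes summits that lie on multi-copy tRNA genes, and it kept 30 summits. Without repeated sequence, the median signal was 79.3% of that of all summits (106% in the conservative list, 91.6 to 100.1% with 1 replicate left out). The intronic share was then 16.7%, and 13.3% had more than 1 gene in reach. That last share was 13.7% within 250 bp, 33.6% within 1000 bp and 5.53% by gene body. Among stronger summits, 62.8% had thresholded peaks in both replicates, and 4.0% of pathway genes had a summit. Spearman's rho was 0.478 by the q column and 0.547 in the thresholded lists. The share on X stayed within its interval in every alternative. No paired analysis was possible because there was 1 group.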
